A study of Mus musculus with 12 samples.

Results

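Insulin-like growth factor 1 (Igf1), its receptor gene Igf1r and the genes of 7 IGF-binding proteins (Igfbp1 to Igfbp7) were followed in cultured mouse embryonic fibroblasts with and without telomerase. These 9 genes were taken by gene symbol, and each had 1 probe set annotated with that symbol alone, so 9 of the 28853 probe sets and 9 of the 19938 genes with a probe set of their own were described. Fibroblasts came from male C57BL/6J embryos of E12.5 to E14.5 (days of embryonic development) and were used at passage 5, with 1 array per culture and 3 cultures in each of 4 groups. The mTERT KO group lacked telomerase reverse transcriptase and was compared with mTERT WT. The mTR KO group lacked the telomerase RNA and was compared with mTR WT. Both knockouts were of generation G1, the first without telomerase, and the submitters' design text describes knockout and wild-type embryos as littermates in 3 independent sets. The study's title names gene expression and the DNA damage response as its subjects, and the comparisons below ask what each deletion did to the IGF system. Expression is given as log2 signal per probe set. A difference of 1 is a doubling, and differences are knockout minus wild type unless another pair is named. Signals of different genes come from different probes and were not compared with each other.

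IGF1 is a secreted growth factor that resembles proinsulin. It binds the receptor tyrosine kinase IGF1R, which acts through insulin receptor substrates on the PI3 kinase, Akt and mTOR pathway and through Shc on the MAP kinase pathway. The IGF-binding proteins hold IGF1 and IGF2 outside the cell, prolong their life and limit their access to the receptor, and proteases such as pappalysin release the ligand again. Fibroblasts secrete both IGF1 and several binding proteins, and some binding proteins, among them IGFBP3 and IGFBP7, are known for their link to growth arrest and senescence.

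Promoter sequences of 3 members are shown. Igfbp1 was the one member not above background, Igfbp2 had the widest range over the cultures, and Igfbp4 had another protein with an IGF-binding domain, Ccn5, among the genes most like it. Each is the 250 bases before the annotated start, 5′ to 3′, from RefSeq on build GRCm38.p6, all on the plus strand, with motif matches in capitals.
Igfbp1, chr11:7197537-7197786: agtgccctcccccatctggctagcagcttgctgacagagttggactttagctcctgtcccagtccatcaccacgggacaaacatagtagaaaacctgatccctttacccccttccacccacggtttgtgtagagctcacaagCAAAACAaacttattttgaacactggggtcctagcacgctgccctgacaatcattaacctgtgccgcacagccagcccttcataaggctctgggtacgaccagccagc
Igfbp2, chr1:72824230-72824479: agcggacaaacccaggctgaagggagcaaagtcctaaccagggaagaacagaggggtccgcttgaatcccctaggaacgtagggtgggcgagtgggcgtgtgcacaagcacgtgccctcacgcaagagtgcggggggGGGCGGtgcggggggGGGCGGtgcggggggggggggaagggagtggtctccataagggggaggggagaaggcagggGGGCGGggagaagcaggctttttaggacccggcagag
Igfbp4, chr11:99040994-99041243: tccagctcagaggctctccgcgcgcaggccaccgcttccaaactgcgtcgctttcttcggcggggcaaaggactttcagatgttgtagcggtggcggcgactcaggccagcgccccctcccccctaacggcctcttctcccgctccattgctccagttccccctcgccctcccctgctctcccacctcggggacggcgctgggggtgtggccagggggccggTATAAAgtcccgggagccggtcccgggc
Both strands were searched for 4 motifs, and no match in a member overlapped another. The motif CAAAACA is the core of the insulin response element known from the IGFBP1 promoter. The TATA box was searched as TATAAA, the GC box as GGGCGG and the AP-1 site as TGANTCA. All 9 members had a promoter in the table, and Igfbp2 had 2, of which the first is shown. In the sequence of Igfbp1, CAAAACA began 108 bases before the start, and 5.56% of all 32851 promoter windows of this length held this motif. The Igfbp2 window held GGGCGG at 113, 98 and 37 bases before the start (32.7% of windows held it), and that of Igfbp4 held TATAAA at 28 bases (12.4%). Among the other members the GC box was found for Igf1r and Igfbp7 and the TATA box, on the minus strand, for Igfbp6. The AP-1 motif (6.75% of windows) was found for Igf1 and for the second Igfbp2 promoter. The windows of Igfbp3 and Igfbp5 held none of the 4 motifs.

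Of the 9 genes, 8 were above background in all 12 cultures. Background was set at the 95th percentile of 1035 probe sets of olfactory receptors, which lay between 4.93 and 5.09 in the arrays. Igfbp1, a binding protein made mainly by the liver, read between 4.58 and 4.99 and passed its array's background in 0 of 12 cultures, so its differences are not interpreted. Fibroblast identity was carried by 10 of 10 markers above background in each culture, and 5 of 7 endothelial markers (Pecam1, Cdh5, Kdr, Tek and Esam) were below it in all 12, with Emcn and Cldn5 above it in 3 cultures each. Of 6 epithelial markers, Krt8, Krt19 and Cldn4 were above background in all 12, Cdh1 and Krt18 in 9 each and Epcam in 0. Macrophage markers were also present (15 or 16 of 16 above background), with a summed linear signal of 5236 to 15097 in mTERT KO, 6041 to 18190 in mTERT WT, 5942 to 19210 in mTR KO and 2991 to 11979 in mTR WT. As a check of the labels, Tert averaged 4.86 ± 0.12 in mTERT KO and 5.65 ± 0.13 in mTERT WT (SD, n = 3 each) and was the single probe set that passed a 5% false discovery rate there (limma, adjusted p = 0.0352; 0.0187 to 1.00 over 22 alternatives). Terc lay within background in every culture and checks nothing about the mTR labels.

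**Figure D1:**
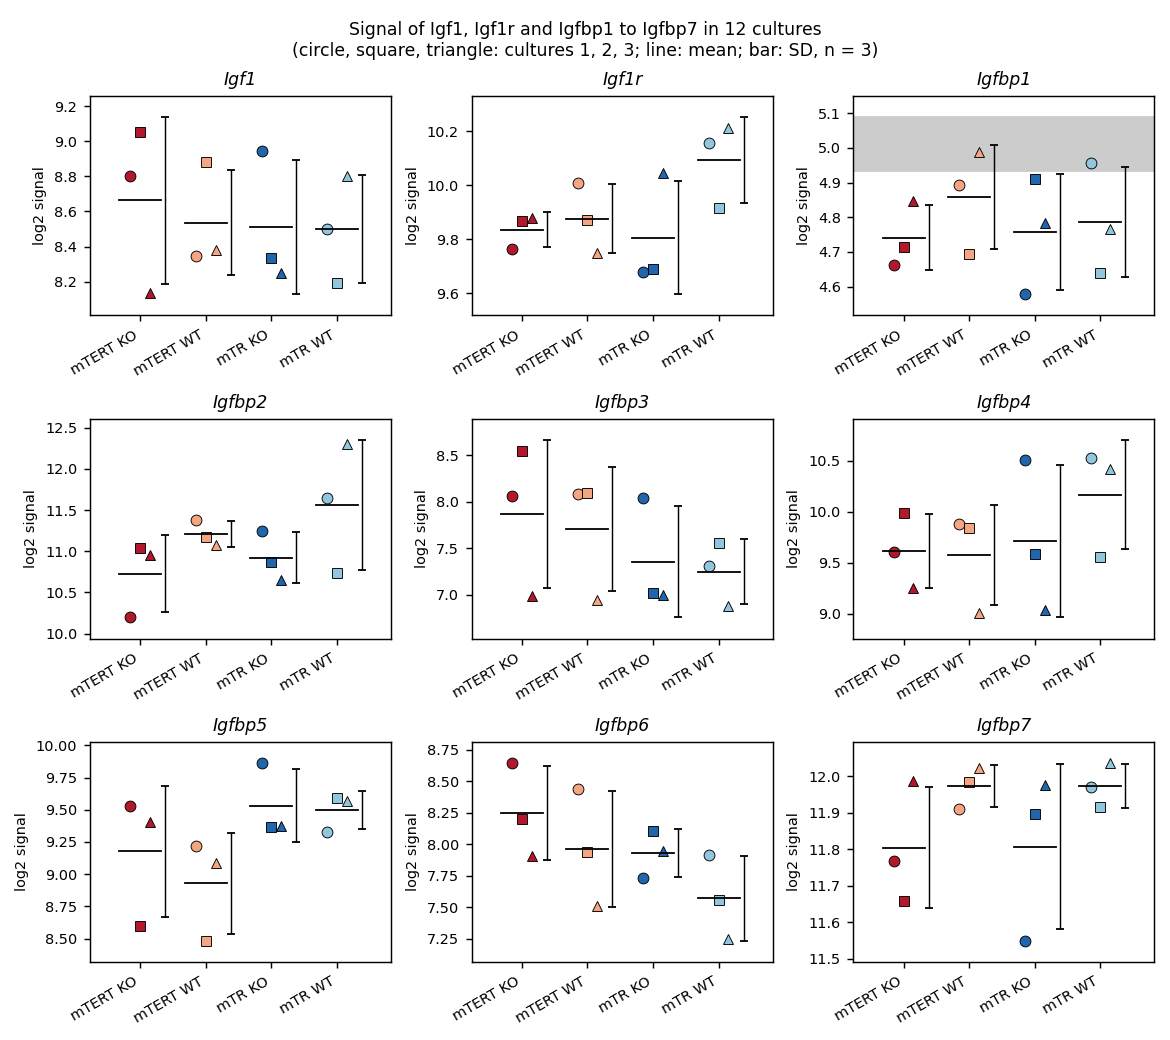
Log2 signal of the 9 genes in each culture, by group, with the group mean as a line and the SD as a bar (n = 3), each panel on its own axis. The grey band for Igfbp1 is the background level over the arrays, 4.93 to 5.09, and knockout and wild type of a line overlap in all panels except Igfbp2 in the mTERT line.

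For the ligand Igf1 no difference between knockout and wild type passed in either line. It read 8.80, 9.05 and 8.14 in mTERT KO cultures 1 to 3, against 8.35, 8.88 and 8.38 in mTERT WT cultures 1 to 3. For the mTR line the values were 8.95, 8.33 and 8.25 in mTR KO, against 8.50, 8.19 and 8.80 in mTR WT. The mTERT KO cultures included one above and one below all mTERT WT cultures, and in the mTR line the groups overlapped. The difference was 0.13 ± 0.26 (SE) in the mTERT comparison and 0.011 ± 0.26 in the mTR comparison, with 95% intervals of −0.45 to 0.70 and −0.57 to 0.59 (limma, adjusted p = 1 and 0.998). Macrophages also make Igf1. The 16 macrophage markers lay higher in mTR KO for 16 genes with a median of 0.75 and lower in mTERT KO for 15 genes with a median of −0.14, and their part in the Igf1 signal was not tested. In RNA from whole cultures, fewer cells of a type and less RNA per cell cannot be told apart.

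Igf1r had the smallest unadjusted p of the members in the mTR line. Its signal was 9.68, 9.69 and 10.05 in mTR KO cultures 1 to 3, against 10.16, 9.91 and 10.21 in mTR WT. The mTR KO 3 culture lay above mTR WT 2, so the groups overlapped. The difference was −0.29 ± 0.11 with an interval of −0.54 to −0.038, and it did not pass (limma, adjusted p = 0.839). Igf1r read 9.76, 9.87 and 9.88 in mTERT KO and 10.01, 9.87 and 9.75 in mTERT WT, a difference of −0.041 ± 0.11. The effects of the 2 knockouts were not shown to differ (0.25 ± 0.16, limma, adjusted p = 1.00).

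Igfbp2, a binding protein with a preference for IGF2, was the member with the largest differences in both knockout comparisons. It read 10.20, 11.04 and 10.95 in mTERT KO cultures, against 11.38, 11.17 and 11.07 in mTERT WT. All 3 knockout cultures lay below all 3 wild types, by a margin of hundredths between mTERT KO 2 and mTERT WT 3, while mTERT KO 1 was far lower. The mTR values were 11.25, 10.87 and 10.65 in mTR KO, against 11.65, 10.73 and 12.30 in mTR WT. There the groups overlapped, and mTR WT 3 was the highest of all 12 cultures. The differences were −0.48 ± 0.34 in the mTERT line (adjusted p = 1) and −0.64 ± 0.34 in the mTR line (adjusted p = 0.840). Averaged over both lines the difference was −0.56 ± 0.24 with an interval of −1.09 to −0.028 (limma, adjusted p = 0.985), which is 1.47-fold lower. Without mTERT KO 1 the mTERT difference was −0.21. The mTR difference was −0.27 without mTR WT 3 and −1.05 without mTR WT 2.

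Igfbp7, a distant member that binds IGFs weakly and is a secreted matrix protein, lay at almost the same level in both wild types. It read 11.77, 11.66 and 11.99 in mTERT KO, against 11.91, 11.98 and 12.02 in mTERT WT. Its values were 11.55, 11.90 and 11.98 in mTR KO, against 11.97, 11.92 and 12.04 in mTR WT. The lowest 2 cultures of the 12 were mTR KO 1 and mTERT KO 2, and each knockout had a culture within the range of its wild type. The differences were −0.17 ± 0.11 in both lines (adjusted p = 1 and 0.846), and −0.17 ± 0.080 when averaged (limma, adjusted p = 0.985). Without mTR KO 1 the mTR difference was −0.038, and without mTERT KO 2 the mTERT difference was −0.095. All 11 smooth muscle and myofibroblast markers also lay lower in both knockouts, with medians of −0.15 in the mTERT and −0.39 in the mTR line. Their summed linear signal was 20724 to 29024 in mTERT KO and 23995 to 30327 in mTERT WT, and 18273 to 29157 in mTR KO and 27342 to 28219 in mTR WT. Cartilage markers were lower in mTR KO for 7 of 8 (median −0.43) and in mTERT KO for 3 of 8 (median 0.14). Their summed signal was 1212 to 1404 in mTERT KO and 1169 to 1458 in mTERT WT, and 1002 to 1314 in mTR KO and 1445 to 2079 in mTR WT. Their mean log2 signal was highest in mTR WT 1 (6.76) and mTR WT 3 (6.31), where Igfbp2 was highest too, and Matn1 was below background in all 12 cultures. The part of either marker list in the Igfbp2 and Igfbp7 signals was not tested.

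Igfbp6, the binding protein that prefers IGF2 most strongly, was the member with the largest positive difference averaged over both lines. It read 8.64, 8.20 and 7.91 in mTERT KO, against 8.44, 7.94 and 7.51 in mTERT WT. The mTR values were 7.73, 8.11 and 7.94 in mTR KO and 7.91, 7.55 and 7.24 in mTR WT. Knockout and wild type overlapped in both lines, although the highest culture of each line was a knockout. The differences were 0.29 ± 0.25 and 0.36 ± 0.25 (adjusted p = 1 and 0.847), and the average was 0.32 ± 0.18 (limma, adjusted p = 0.985). With each array left out in turn, the mTERT difference ranged between 0.063 and 0.53, being lowest without mTERT WT 3. The mTR difference ranged between 0.19 and 0.53, being lowest without mTR WT 3. These fits had no pairs, and the same-numbered mTERT differences were 0.21, 0.27 and 0.39.

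Igfbp3, the main carrier of circulating IGF and a known p53 target, varied more between cultures than between genotypes. It read 8.07, 8.55 and 6.99 in mTERT KO, against 8.09, 8.10 and 6.95 in mTERT WT, and 8.05, 7.02 and 7.005 in mTR KO, against 7.31, 7.56 and 6.88 in mTR WT. The third culture of both mTERT groups was low, whatever its genotype, and so were mTR KO 2, mTR KO 3 and mTR WT 3. The differences were 0.16 ± 0.43 and 0.11 ± 0.43 (adjusted p = 1 and 0.977), with intervals of −0.79 to 1.11 and −0.85 to 1.06. These intervals hold a change of nearly 1 on the log2 scale in either direction. They come from a fit without pairs, so the spread between culture numbers is part of the mTERT interval. The same-numbered mTERT differences were −0.024, 0.45 and 0.048.

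Igfbp4, whose protein inhibits IGF action and is cut by pappalysin, read 9.61, 9.99 and 9.25 in mTERT KO, against 9.88, 9.84 and 9.005 in mTERT WT. The mTR values were 10.51, 9.59 and 9.03 in mTR KO and 10.53, 9.55 and 10.42 in mTR WT. The mTR groups overlapped, and mTR KO 3 was the single culture below mTR WT 2. The differences were 0.041 ± 0.39 and −0.46 ± 0.39 (adjusted p = 1 and 0.859). The mTR difference was −0.12 without mTR KO 3, −0.28 without mTR WT 1, −0.86 without mTR KO 1 and −0.77 without mTR WT 2.

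Igfbp5, a binding protein that attaches to matrix and is abundant in mesenchyme, read 9.53, 8.60 and 9.41 in mTERT KO, against 9.21, 8.48 and 9.09 in mTERT WT. Its values were 9.86, 9.36 and 9.37 in mTR KO, against 9.33, 9.59 and 9.57 in mTR WT. The second mTERT culture of each genotype was the lowest of its group. The differences were 0.25 ± 0.25 and 0.035 ± 0.25 (adjusted p = 1 and 0.989). The mTERT difference was 0.026 without mTERT WT 2, 0.072 without mTERT KO 1 and 0.13 without mTERT KO 3. It was 0.39 without mTERT WT 1 and 0.54 without mTERT KO 2. Each of these fits kept the same-numbered counterpart of the culture left out. The same-numbered mTERT differences were 0.32, 0.11 and 0.32.

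Across the 9 members 0 passed a 5% false discovery rate in either knockout comparison, where 0.00347% of all probe sets (Tert alone) were called in the mTERT line and 0% in the mTR line. At an unadjusted p below 0.05, 0 members stood out in the mTERT comparison (1.92% of all probe sets did) and 1 in the mTR comparison (5.82%). Averaged over both knockouts 1 of 9 had such a p, Igfbp2, against 4.09% of all probe sets, with 0 of 9 and 0% called after adjustment. For the difference of the 2 effects the counts were 0 of 9 at an unadjusted p below 0.05 (3.34%) and 0 of 9 after adjustment (0%). The median difference of the members was 0.041 in the mTERT and −0.030 in the mTR line. Over all probe sets the medians were 0.00113 and 0.000873. Of the members' medians, the mTR one was the value of Igfbp1, which was below background in every culture. In absolute size the medians were 0.16 and 0.17, against 0.056 and 0.076 over all probe sets, dim ones included. Groups did not overlap for 1 of 9 members in the mTERT line, Igfbp2 with the knockout below, as for 5.97% of all probe sets (2.88% with the knockout above and 3.09% with it below). In the mTR line 0 of 9 were apart, against 11.4% of all probe sets (5.33% above and 6.07% below). With 3 cultures per group the number of arrays limits the precision, and these counts do not show that effects were absent.

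**Figure D2:**
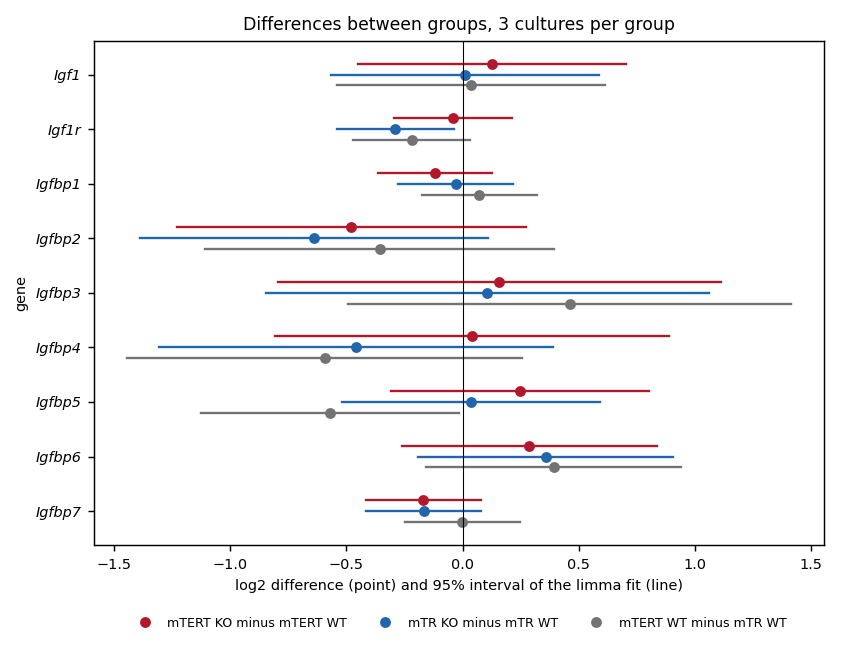
Log2 differences of the 9 genes with 95% intervals of the fit without pairs (3 cultures per group). The comparisons are mTERT KO minus mTERT WT, mTR KO minus mTR WT and mTERT WT minus mTR WT. Of the 27 intervals, those of Igf1r in the mTR comparison and of Igfbp5 between the wild types lie on one side of 0.

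In the mTERT line the cultures of the same number moved together, and 5 members followed the number closely. Of the variance of Igfbp3 within this line, 95.3% lay between culture numbers and 1.73% between genotypes. The share of the number was 89.5% for Igfbp4, 88.3% for Igfbp5, 84.0% for Igfbp6 and 77.5% for Igf1, where 40% would lie between numbers and 20% between genotypes for unrelated cultures. For Igf1r and Igfbp2 it was 12.9 and 13.1%, for Igfbp7 39.0%, and for Igfbp1, within background, 55.8%. The median share over the 9 members was 77.5%, against 69.1% over the brighter probe sets (mean above the median). Fibroblast markers had a mean log2 signal of 10.67 in mTERT KO 3 and 10.51 in mTERT WT 3, against 11.22 to 11.54 in the other 4 mTERT cultures. Their summed linear signal did not set both apart, with 40474 in mTERT KO 3, 38731 in mTERT WT 3 and 40414 to 43435 in the other 4. Single markers varied unequally over the 12 cultures, with Lum at 5.62 to 10.09 and Pdgfra at 6.21 to 9.98, but Col1a1 at 12.95 to 13.17. Igfbp3 and Igfbp4 were lowest of the mTERT line in mTERT KO 3 and mTERT WT 3. Whether the level of any marker had a part in that was not tested.

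Taken within same-numbered cultures, the differences of 4 members had 1 sign in all 3 pairs, and 25.1% of all probe sets did. Igfbp6 was higher by 0.21, 0.27 and 0.39 in mTERT KO cultures 1 to 3 than in their wild-type counterparts. Igfbp5 was higher by 0.32, 0.11 and 0.32. Igfbp2 differed by −1.18, −0.13 and −0.12, with pair 1 far from the others, and Igfbp7 differed by −0.14, −0.33 and −0.036. For Igf1, Igf1r, Igfbp1, Igfbp3 and Igfbp4 the 3 pairs had mixed signs. The mTR numbers did not pair the cultures, and no such differences are given for that line.

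**Figure D3:**
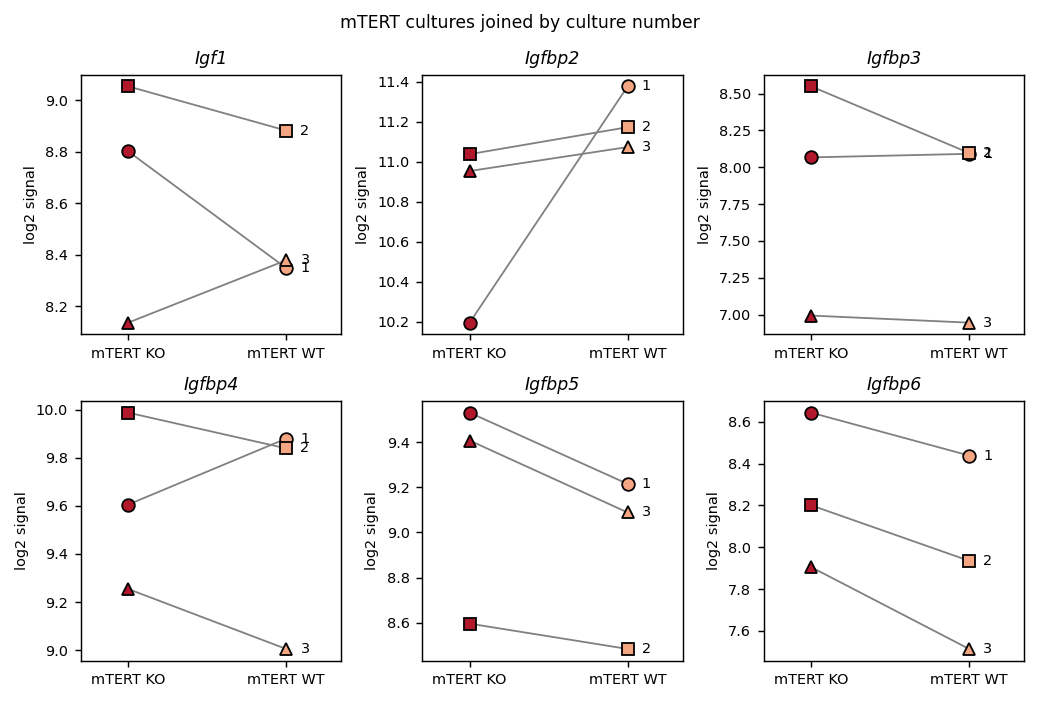
Log2 signal of 6 members in the mTERT line, mTERT KO left and mTERT WT right, with cultures of the same number joined by a line. Igfbp5 and Igfbp6 are higher in mTERT KO in all 3 pairs, and Igfbp2 is lower in all 3, with 1 steep line. The line of pair 3 lies far below the others for Igfbp3.

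The wild types differed from each other by more than either knockout from its wild type for Igfbp3, Igfbp4, Igfbp5 and Igfbp6, and by less for Igfbp7 (−0.0013), but no member passed. Igfbp5 had the smallest unadjusted p, with 9.21, 8.48 and 9.09 in mTERT WT, against 9.33, 9.59 and 9.57 in mTR WT. Its groups did not overlap, the 1 member of 9, as for 13.1% of all probe sets (5.91% with mTERT WT above and 7.14% with it below), and the difference of −0.57 ± 0.25 did not pass (limma, adjusted p = 0.730). With each array left out in turn, the Igfbp5 difference ranged between −0.71 and −0.35. Igfbp4 differed by −0.59 ± 0.39, Igfbp3 by 0.46 ± 0.43, Igfbp6 by 0.39 ± 0.25, Igfbp2 by −0.36 ± 0.34 and Igf1r by −0.22 ± 0.11, all with an adjusted p of 0.783 or more. Of the 9 members 0 were called (0.0173% of all probe sets) and 1 had an unadjusted p below 0.05 (6.78%). The median absolute difference of the members was 0.36 between the wild types, beside 0.16 and 0.17 for the knockout comparisons. Of the marker lists, macrophage markers lay higher in mTERT WT than in mTR WT for 16 of 16 (median 0.83). Smooth muscle and myofibroblast markers lay lower for 10 of 11 (median −0.17) and cartilage markers for 6 of 8 (−0.35). The part of these markers in the members' differences was not tested. Ordered by group mean, 25 of the 27 gaps between neighbouring groups were within the larger SD of the 2 groups. The exceptions were Igf1r, with mTR WT at 10.09 ± 0.16 above mTERT WT at 9.88 ± 0.13, and Igfbp6, with mTR KO at 7.93 ± 0.19 above mTR WT at 7.57 ± 0.34 (SD, n = 3 each). The ranges of neighbouring groups overlapped in all 27.

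The members with the widest range over the 12 cultures were Igfbp2 (10.20 to 12.30, 4.31-fold), Igfbp3 (6.88 to 8.55, 3.19-fold) and Igfbp4 (9.005 to 10.53, 2.88-fold). Igfbp7 varied least of the expressed members (11.55 to 12.04, a range of 0.49). Genes of like pattern were sought among 12269 genes whose mean signal passed background, by Pearson's r over the 12 cultures, which share litters and are not independent, and r is given as a description. The closest to Igfbp4 were Slc12a2 (r = 0.932), a sodium-potassium-chloride cotransporter, Lamb2 (0.917), a laminin chain, and Tasp1 (0.917). They were followed by Ccn5 (0.912), itself a secreted protein with an IGF-binding domain, and Scara3 (0.908). Ccn5 read 9.85, 10.44 and 9.35 in mTERT KO and 10.24, 10.24 and 8.75 in mTERT WT, with its lowest value in the culture where Igfbp4 was lowest. It read 10.88, 10.24 and 9.85 in mTR KO and 11.02, 9.97 and 10.70 in mTR WT, with its highest value in mTR WT 1, where Igfbp4 was highest too. For Igfbp3 the closest were Dhrs7 (0.949), a short-chain dehydrogenase, Zfp608 (0.938), Ptpn13 (0.937), a tyrosine phosphatase, Flt3l (0.930), a cytokine, and Shfl (0.928). For Igfbp2 they were the annexin Anxa11 (0.928), Dpy19l3 (0.866), the caveolin Cav2 (0.865) and the mesenchymal patterning factors Pax1 (0.853) and Six2 (0.852). Pax1 was near background, at 4.89 to 5.27 in 10 cultures, and stood higher in mTR WT 1 (5.63) and mTR WT 3 (5.82), the 2 cultures with the highest Igfbp2. Igfbp2 and Igfbp5 lie next to each other in the RefSeq annotation, and their highest cultures were different ones, mTR WT 3 for Igfbp2 and mTR KO 1 for Igfbp5.

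**Figure D4:**
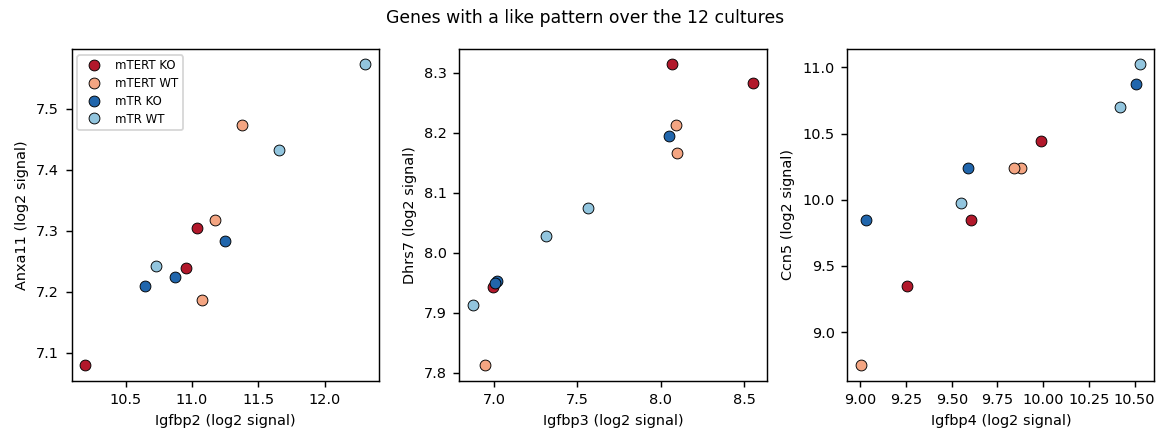
Log2 signals of Anxa11 against Igfbp2, Dhrs7 against Igfbp3 and Ccn5 against Igfbp4 in the 12 cultures, coloured by group. Each pair lies along a rising line (r = 0.928, 0.949 and 0.912), but the groups are not spread evenly along it. The upper end for Igfbp2 is held by mTR WT 3 (12.30) and mTR WT 1 (11.65). For Igfbp4 it is held by mTR WT 1 (10.53), mTR KO 1 (10.51) and mTR WT 3 (10.42), with all mTERT cultures at or below 9.99.

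Beyond the members, 53 of 60 listed genes of the IGF pathway had a probe set of their own. Of these 0 passed in either direction in the mTERT and the mTR comparison (limma, smallest adjusted p of 1.00 and 0.839). At an unadjusted p below 0.05 there were 1 of 53 in the mTERT line, 1.89% where all probe sets had 1.92%, and 7 of 53 in the mTR line, 13.2% where all probe sets had 5.82%. In the mTR line 39 of 53 were lower, 73.6% against 49.7% of all probe sets, with a median of −0.070. In the same comparison smooth muscle markers were lower for 11 of 11 (median −0.39), cartilage markers lower for 7 of 8 (−0.43) and macrophage markers higher for 16 of 16 (0.75), and their part in the pathway genes' shift was not tested. In the mTERT line 31 of 53 were lower, with a median of −0.014. Between the wild types 33 of 53 were lower in mTERT WT than in mTR WT, 62.3% against 47.8% of all probe sets (median −0.036). There 6 of 53 had an unadjusted p below 0.05, 11.3% against 6.78%, and none was called. The shares of all probe sets include dim ones.

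Of 5 other ligands and receptors, 3 were lower in mTERT KO and 2 in mTR KO, and none was called. Igf2, the fetal growth factor, read 8.58, 8.37 and 7.30 in mTR KO and 7.84, 7.64 and 7.18 in mTR WT (0.53 ± 0.35, adjusted p = 0.844). This difference was 0.28 without mTR KO 1, 0.34 without mTR WT 3 and 0.92 without mTR KO 3. It read 8.86, 8.84 and 7.90 in mTERT KO and 8.46, 8.92 and 8.32 in mTERT WT (−0.035 ± 0.35). Between the wild types Igf2 differed by more, 1.01 ± 0.35 for mTERT WT minus mTR WT (limma, adjusted p = 0.584). Igf2r, which clears IGF2, read 10.95, 10.90 and 11.19 in mTR KO, below the 11.27, 11.21 and 11.22 of mTR WT (−0.22 ± 0.099, adjusted p = 0.839). Ins2, an insulin gene, differed by −0.21 in the mTERT and 0.090 in the mTR line and Insrr by −0.031 in the mTERT line, but both were below background in all cultures.

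Downstream of the receptor, 21 of 24 adaptors, kinases and their targets were lower in mTR KO, with a median of −0.070 and none called. In mTERT KO 14 of 24 were lower. Between the wild types 18 of 24 were lower in mTERT WT than in mTR WT (median −0.056). Foxo1, a transcription factor that Akt inhibits, read 6.69, 6.39 and 6.65 in mTR KO and 7.06, 7.31 and 7.29 in mTR WT (−0.64 ± 0.16, adjusted p = 0.839). It lay between 6.07 and 6.76 in the 6 mTERT cultures, so the mTR WT cultures stood above all others. Mtor, the kinase of the growth pathway, differed by −0.28 ± 0.096 and Shc1, an adaptor of the receptor, by −0.19 ± 0.068 in the mTR line (adjusted p = 0.839 each). In the mTERT line Irs1, the main docking protein of the receptor, differed by 0.25 ± 0.24 and Foxo3 by 0.10 ± 0.094 (adjusted p = 1 each), and Irs4 (−0.073) was below background.

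Of 6 proteases and stanniocalcins, 3 were higher and 3 lower in each knockout, and none was called. Among the proteases that act on binding proteins, Pappa2 ranged most widely, with 5.96, 4.96 and 7.28 in mTR KO and 8.07, 6.03 and 7.50 in mTR WT (−1.13 ± 0.65, adjusted p = 0.840). This difference was −0.57 without mTR KO 2, −0.70 without mTR WT 1 and −1.74 without mTR KO 3. In the mTERT line it differed by −0.26 ± 0.65. Pappa (−0.22 ± 0.16) and Htra1 (0.21 ± 0.12) did not pass in the mTR line, where Pappa was at −0.061 without mTR KO 1, nor did Stc2, a stanniocalcin that inhibits pappalysin (0.11 ± 0.17), and Adam12 (0.043 ± 0.15) in the mTERT line. In the growth hormone axis, 3 of 6 genes were lower in mTERT KO and 5 of 6 in mTR KO, none of them called, and the named differences in the mTERT line were −0.094 for the receptor Ghr, 0.074 for the transcription factor Stat5a and 0.076 for Stat5b. In the mTR line they were 0.26 for Jak2, −0.11 for Stat5a and −0.078 for Igfals, which passed background in 1 of 12 cultures. Igf2bp1, which binds IGF2 mRNA, read 7.89, 7.88 and 8.28 in mTR KO and 8.32, 8.38 and 8.35 in mTR WT (−0.33 ± 0.15, adjusted p = 0.839), and differed by −0.077 in the mTERT line. Igf2bp3 differed by −0.039 in the mTR line and by 0.0014 in the mTERT line.

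Of 10 proteins with an IGF-binding domain outside the family, 7 were lower in mTERT KO and 6 in mTR KO, and none was called. Among them Ccn3 had the largest difference. It read 10.17, 9.12 and 9.82 in mTR KO and 9.34, 8.93 and 7.09 in mTR WT (1.25 ± 0.55, adjusted p = 0.839), with mTR WT 3 far below the rest, and the difference was 0.57 without that culture. Its mTERT values were 10.65, 10.59 and 10.02 in mTERT KO and 10.61, 9.90 and 9.002 in mTERT WT (0.58 ± 0.55, adjusted p = 1), and the difference was 0.17 without mTERT WT 3. Crim1 differed by −0.46 ± 0.30 in the mTR and −0.29 ± 0.30 in the mTERT line, and Ccn2, connective tissue growth factor, by −0.31 ± 0.22 in the mTR line. Without mTR KO 1 the mTR differences were −0.093 for Crim1 and −0.0025 for Ccn2. Esm1 (0.13 in the mTERT line) was below background.

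**Figure D5:**
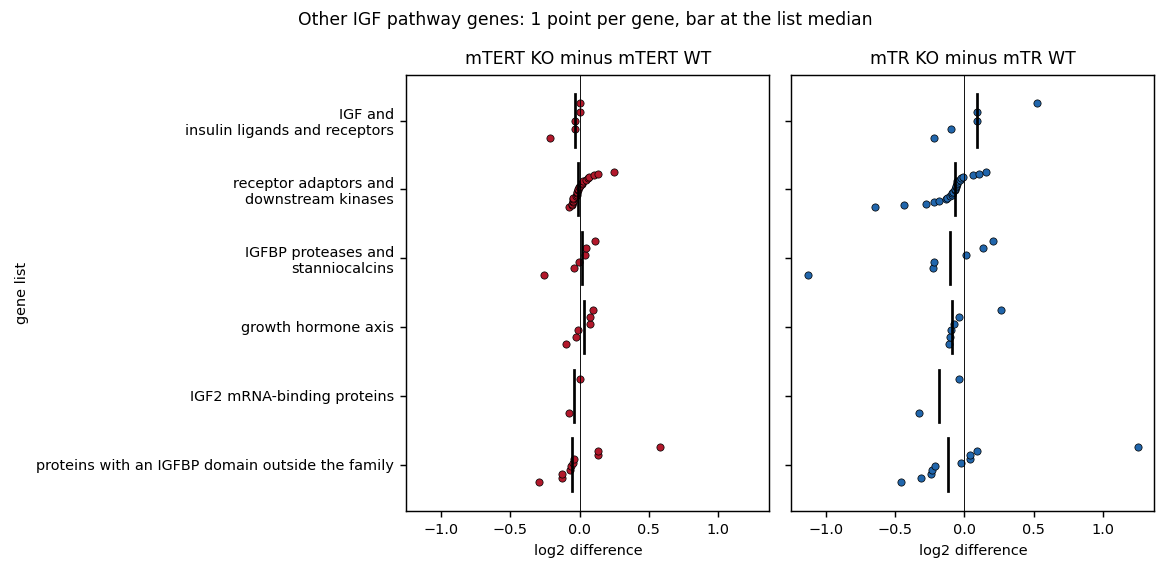
Log2 differences of 53 other IGF pathway genes in 6 lists, mTERT KO minus mTERT WT in the left panel and mTR KO minus mTR WT in the right panel, 1 point per gene with the list median as a bar. Most points lie within 0.5 of 0, and the farthest are Pappa2 (−1.13) and Ccn3 (1.25) in the mTR panel.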

How the data were processed

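Arrays of 12 cultures gave log2 summary signals of 28853 probe sets, used as deposited by the authors. GCOS 1.4, Affymetrix Expression Console and PLIER are named in the submitters' processing notes without a role, and how arrays were scaled to each other was not stated there. Array quantiles differed by at most 0.08. The platform annotation gave 1 symbol to 21789 probe sets, several to 1621 and none to 5443, and 0 symbols changed against RefSeq (GRCm38.p6). With limma 3.58.1 (R 4.3.3), 4 group means were fitted to all probe sets without a filter (8 residual and 3.14 prior degrees of freedom), and p-values were adjusted over all of them by Benjamini-Hochberg. The 5 contrasts were the knockout comparison of each line, their difference, their mean, and mTERT WT minus mTR WT. The procedure was tested on simulated data. P-values measure the spread between 3 cultures per group.

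Members and lists were chosen with earlier results of these data known. The named genes were the members, Tert and Terc, up to 3 genes of smallest p per pathway list and knockout comparison, and the 5 genes most like each of the 3 members of widest range. Motifs and 1 paired fit were chosen after the data were seen. Deviations from group means over 14426 brighter probe sets correlated at 0.674, 0.733 and 0.790 for same-numbered mTERT KO and mTERT WT cultures. On the basis of the data, these were paired for the same-numbered differences and in alternative fits. The main fit had no pairs, so errors and intervals of mTERT differences also hold the spread between culture numbers. Same-numbered mTR KO and mTR WT cultures correlated at −0.156, 0.289 and −0.377 and were not paired. Alternatives were replicate blocks, quantile normalization, median centring, the brighter probe sets alone, a trended robust variance, array weights, only the arrays compared, and each array left out. Plots used matplotlib 3.10.9 (Python 3.11.15).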

Additional observations from a re-analysis of the deposited data

How the results depend on the processing

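None of the 9 members passed the threshold in any of the 5 contrasts under any alternative run, and the smallest adjusted p of a member was 0.607, 0.293, 0.915, 0.709 and 0.502 in the mTERT, mTR, difference, mean and wild-type contrasts. Of 1680 member and named-gene values under alternatives, 1587 kept direction and side of the threshold, 79 changed sign and 14 lost a call, all of them of Tert. The probe set called in the mTERT comparison, Tert, was lost in 14 of 22 alternatives, 10 of them with 1 array left out (adjusted p between 0.0247 and 0.347 over the 12). The count was 0 with a replicate block of number within line (adjusted p = 0.134), quantile normalization (0.0504), the arrays compared alone (1.00) and the paired fit of the 6 mTERT arrays (0.101), which was chosen after seeing the data. That paired fit gave 1604 probe sets an unadjusted p below 0.05, and adjusted p = 0.607 for Igfbp6, 0.782 for Igfbp5 and 0.888 for Igfbp2. No replicate block changed the call of a member. The 5 probe sets called between the wild types became 9 with a replicate block of the number across lines, 9 with array weights, 1 with the arrays compared alone and 0 after quantile normalization. With each array left out in turn, counts were 0 to 2 (mTERT), 0 to 3 (mTR), 0 to 1 (mean) and 0 to 11 (wild types).

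Array weights turned the sign of Igfbp4 in the mTERT contrast (−0.036), of Igf1 (−0.15), Igfbp1 (0.040), Igfbp3 (−0.020) and Igfbp5 (−0.063) in the mTR contrast, and of Igf1 in the mean (−0.024). Median centring turned Igf1 in the mTR contrast (−0.0018) and Igfbp7 in the difference (0.011), and quantile normalization turned Igfbp7 in the difference (0.0046) and between the wild types (0.0067). With each array left out in turn, ranges that crossed 0 in the mTERT contrast were −0.094 to 0.18 for Adam12, −0.11 to 0.022 for Insrr, −0.039 to 0.17 for Stat5b, −0.083 to 0.23 for Stc2, −0.068 to 0.39 for Igf1, −0.22 to 0.60 for Igfbp3, −0.24 to 0.22 for Igfbp4, −0.18 to 0.050 for Igf2bp1, −0.023 to 0.049 for Igf2bp3, −0.025 to 0.14 for Stat5a, −0.20 to 0.28 for Igf2, −0.10 to 0.025 for Igf1r, −0.63 to 0.24 for Pappa2 and −0.011 to 0.42 for Irs1. In the mTR contrast they were −0.21 to 0.16 for Igf1, −0.11 to 0.059 for Igfbp1, −0.24 to 0.28 for Igfbp3, −0.13 to 0.12 for Igfbp5 and −0.088 to 0.0099 for Igf2bp3. For the difference they were −0.33 to 0.49 for Igfbp3, −0.13 to 0.083 for Igfbp7, −0.078 to 0.38 for Igf1, −0.29 to 0.17 for Igfbp6, −0.0085 to 0.50 for Igfbp5 and −0.21 to 0.58 for Igfbp2. For the mean they were −0.040 to 0.20 for Igf1 and −0.059 to 0.35 for Igfbp3. Between the wild types they were −0.030 to 0.030 for Igfbp7, −0.14 to 0.19 for Igf1, −0.0018 to 0.16 for Igfbp1 and −0.77 to 0.015 for Igfbp2. The fits with 1 array left out had no pairs, so leaving out an mTERT culture kept its same-numbered counterpart in. The cause of the changes was not tested. Blocks within a line were not run for the wild types, which lie in different lines, and no member had another probe set to try.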
